A study of Mus musculus with 16 samples.

Results

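The genotype label by LPS interaction asks whether lipopolysaccharide (LPS), the endotoxin of Gram-negative bacteria, moved a gene by a different amount in brains labelled Lcn2-/- than in wild-type brains. For each gene it is the LPS effect in the group labelled Lcn2-/- minus the LPS effect in wild type, on the log2 scale. A value of 1 means that the change from saline to LPS was 2-fold more upward in labelled Lcn2-/-. Of 33289 genes in the deposited table, 17349 reached a log2 RPKM of -1 in at least 3 of the 16 libraries and were tested. At that limit the third-highest log2 RPKM was -0.999 for the last gene kept and -1.0003 for the first gene removed. The interaction passed the test for 1530 genes (8.82% of those tested, limma, Benjamini-Hochberg adjusted p under 0.05). It was positive for 677 (3.9%) and negative for 853 (4.92%).

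Total RNA was sequenced from hemi-brains of C57BL/6J mice aged 3 to 4 months that had been perfused with PBS, 8 h after an injection of saline or LPS. The groups were wild type after saline, Lcn2-/- after saline, wild type after LPS and Lcn2-/- after LPS, with 4 libraries each, where the study's own description speaks of 3 to 4. The Lcn2-/- label denotes loss of both copies of the gene for lipocalin-2, a secreted iron-siderophore carrier of the acute phase response. The sources used here do not give the allele, the LPS dose or the sex of the mice, and whether any animals were pooled is not stated. The p-values therefore measure the spread between these samples. Values are given per library as RPKM (reads scaled to transcript length and library size), and effects as log2 differences ± SE from a fit with 4 libraries in each group. Read counts were not analysed here, so sequencing depth is unknown.

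LPS binds the receptor complex of TLR4, MD-2 and CD14. One arm of TLR4 signalling releases NF-kB from its IkB inhibitors and switches on cytokines, chemokines and adhesion molecules. The other arm activates IRF3 and induces type I interferon, which acts through its receptor on genes with interferon-stimulated response elements. The response is limited by induced inhibitors such as A20 and SOCS3 and by adrenal glucocorticoids. In the brain, endothelial cells, microglia and astrocytes carry much of the response to LPS given outside the brain.

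Lcn2 itself (ENSMUSG00000026822, chromosome 2, 32384633 to 32388252 on the minus strand, GRCm38) checks the label. Lcn2 came to 0.065, 0.0741, 0.204 and 0.137 RPKM across the wild-type saline libraries and 0.132, 0.204, 0.351 and 0.247 RPKM across those labelled Lcn2-/-. Lcn2 reached 71.5, 67.8, 66.7 and 82.7 RPKM in wild type and 40.2, 34.1, 38.3 and 37.2 RPKM in labelled Lcn2-/- after LPS. The transcript was thus present after LPS in all 4 libraries carrying the knockout label, which is why the group is called labelled Lcn2-/- here. The table holds 1 value per gene, so a deletion of part of the transcript cannot be seen in it. The LPS libraries of the labels did not overlap and the saline libraries did. Lcn2 rose 666-fold in wild type and 169.96-fold in labelled Lcn2-/-, an interaction of -1.97 ± 0.44 (limma adjusted p = 0.0161). On log2(RPKM + 0.5), which damps values near 0, it was -1.17.

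Saline replicate 4 labelled Lcn2-/- stood apart before any contrast was taken, and its title alone ends in a letter, whose meaning the labels do not give. It had 17112 genes at 0.5 RPKM or more, against 16372 to 16497 in the other 15 libraries. Its 25th percentile was -2.73 on the log2 scale, against -4.12 to -3.98 in the other saline libraries. The LPS libraries lay lower than every saline library, at -5.78 to -4.58. Values far below the filter thus differed between the injections, and the reason was not tested. Without it, 2267 genes were called (13.1%), 1046 positive and 1221 negative. Of the 1530 genes called with all libraries, 1493 were called without it, 37 lost the call and 774 others gained one. All 15 neuron, 15 astrocyte and 20 oligodendrocyte markers examined passed the filter, in tissue labelled hemi-brain.

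A minority of promoters of genes with a positive interaction carried a motif of either arm of the LPS response, and 5 that did are shown as examples, chosen after their matches were known. Each is the 250 bases before the start of the gene in RefSeq (GRCm38.p6), 5′ to 3′ on the strand of the gene. Capitals mark a match on either strand to the interferon-stimulated response element (TTTC, any 2 bases, TTTC) or to the NF-kB site (GGGA, any 2 bases, TTCC). Cxcl10, at chr5:92348890-92349139 on the minus strand, has 1 of each. Rsad2 (chr12:26456453-26456702, minus strand), Ifit1 (chr19:34640639-34640888, plus strand) and Gbp2 (chr3:142620413-142620662, plus strand) carry only the interferon motif in this window. Ifit1, an RNA-binding antiviral protein, had an interaction of 1.52 ± 0.28 (limma adjusted p = 0.00665), and Gbp2, a guanylate-binding protein of defence against intracellular bacteria, 1.37 ± 0.24 (limma adjusted p = 0.0047). Cxcl2 (chr5:90903649-90903898, plus strand) has 2 overlapping NF-kB matches and no interferon motif in it.
Cxcl10: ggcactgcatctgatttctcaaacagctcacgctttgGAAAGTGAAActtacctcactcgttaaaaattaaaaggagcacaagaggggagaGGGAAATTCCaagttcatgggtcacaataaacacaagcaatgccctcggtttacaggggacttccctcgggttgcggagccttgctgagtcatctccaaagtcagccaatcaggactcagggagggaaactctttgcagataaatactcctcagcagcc
Rsad2: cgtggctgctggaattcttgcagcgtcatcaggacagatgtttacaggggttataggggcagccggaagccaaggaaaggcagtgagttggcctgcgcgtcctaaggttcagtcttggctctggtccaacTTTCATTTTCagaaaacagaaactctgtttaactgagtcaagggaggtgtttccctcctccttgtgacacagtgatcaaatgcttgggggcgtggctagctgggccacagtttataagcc
Ifit1: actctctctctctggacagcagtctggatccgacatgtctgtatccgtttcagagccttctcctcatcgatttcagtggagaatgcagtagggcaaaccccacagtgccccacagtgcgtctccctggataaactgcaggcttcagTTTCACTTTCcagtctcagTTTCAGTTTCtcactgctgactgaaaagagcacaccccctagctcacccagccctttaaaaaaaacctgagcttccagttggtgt
Gbp2: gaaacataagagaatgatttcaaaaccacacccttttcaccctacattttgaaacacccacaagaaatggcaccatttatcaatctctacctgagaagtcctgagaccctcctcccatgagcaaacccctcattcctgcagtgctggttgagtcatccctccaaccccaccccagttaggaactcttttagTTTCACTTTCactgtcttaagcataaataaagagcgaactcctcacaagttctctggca
Cxcl2: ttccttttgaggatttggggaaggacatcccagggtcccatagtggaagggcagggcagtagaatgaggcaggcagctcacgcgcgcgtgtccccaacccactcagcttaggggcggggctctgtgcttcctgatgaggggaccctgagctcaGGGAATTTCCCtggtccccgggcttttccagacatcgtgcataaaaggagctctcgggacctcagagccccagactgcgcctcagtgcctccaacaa
Promoters of 300 bases (250 before and 50 after the start) could be matched by symbol for 11583 of the 17349 genes tested (66.8%). Each gene was counted once, with a match in any promoter of its symbol. The interferon-stimulated response element was found in 48 of 487 genes with a positive interaction (9.86%), and in 20 of 76 (26.3%) where the interaction was at least 1. It was found in 15 of 551 genes with a negative interaction (2.72%) and in 436 of all 11583 (3.76%). Among the reference promoters it was in 1131 of 32851 (3.44%). That share counts single promoters and the others count genes, so they are not directly comparable. The NF-kB motif was found in 18 of 487 (3.70%), 7 of 76 (9.21%), 11 of 551 (2.0%), 193 of 11583 (1.67%) and 482 of 32851 (1.47%), in the same order. The E-box CACGTG, the site of clock and MYC-family factors, was in 46 of 487 (9.45%), 3 of 76 (3.95%), 62 of 551 (11.3%), 1302 of 11583 (11.2%) and 2349 of 32851 (7.15%). The full palindromic glucocorticoid response element was found in 1 of the 11583 and in 0 of the promoters of called genes. A match is a match of letters only, and the shares are descriptions with no test. Genes that reached the filter limit only through the libraries of 1 group were not left out of these sets.

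The commonest form of interaction was a larger LPS effect in labelled Lcn2-/-. Of the 1530 called genes, 402 (26.3%) were estimated to rise in both labels and to rise more in labelled Lcn2-/-, with median LPS effects of 0.35 in wild type and 1.0 in labelled Lcn2-/-. Another 462 (30.2%) had estimates below 0 in both and lower in labelled Lcn2-/- (medians -0.13 and -0.62). The reverse was rarer: 67 (4.38%) rose less and 24 (1.57%) fell less in labelled Lcn2-/-. The other 575 (37.6%) had estimates of opposite sign, but both LPS effects were themselves called in 32 of them. In 435 of the 575 the LPS effect was called in labelled Lcn2-/- alone, in 90 in wild type alone and in 18 in neither. Across all genes tested, LPS effects were called for 4389 genes in wild type (25.3%) and for 8386 in labelled Lcn2-/- (48.3%), counts that do not themselves test the difference. The median interaction over all 17349 genes was -0.003.

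**Figure D1:**
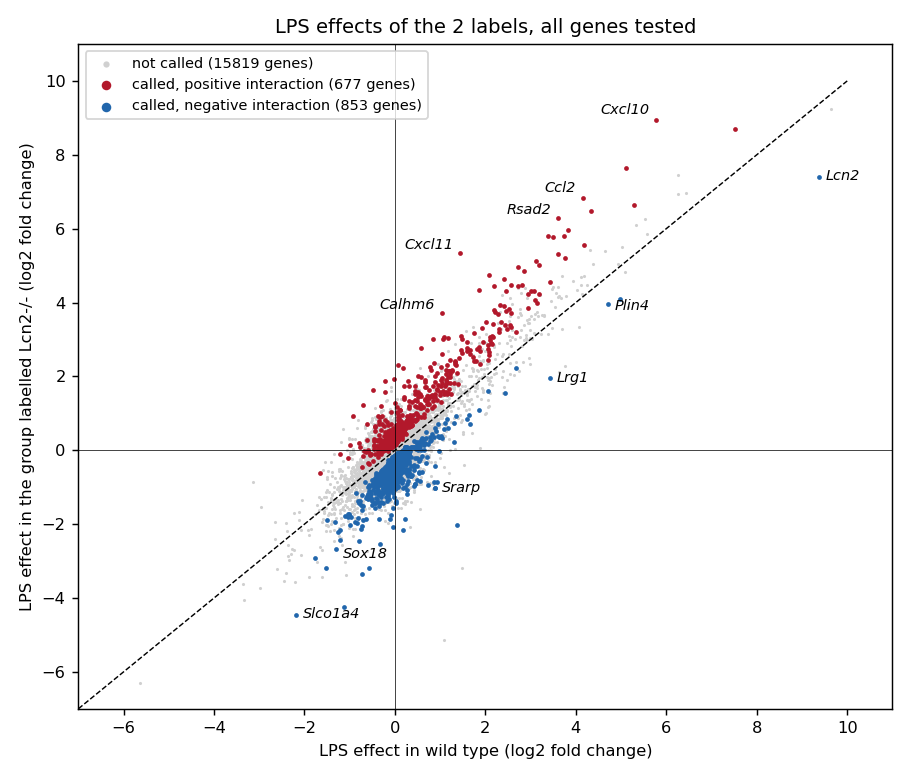
LPS effect in wild type (horizontal axis) against LPS effect in the group labelled Lcn2-/- (vertical axis), both as log2 fold changes, for all 17349 genes tested; each point is 1 gene and the dashed line marks equal effects. Red points (677 genes, called positive) lie above the line and blue points (853 genes, called negative) below it, with Cxcl10, Ccl2 and Rsad2 at the upper edge, Slco1a4 and Sox18 at the lower left, and Lcn2 and Lrg1 below the line among the genes that rose.

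Of the genes tested, 284 reached the limit of 0.5 RPKM only through the libraries of 1 group, and a gene kept by the group where it is high had to differ. They include 37 of the 1530 called genes, 30 of them kept by the LPS libraries labelled Lcn2-/-. Those named below are Cxcl11, Il1a, Acod1, Cd40, Plac8, Tgm1, Wfikkn1, Psors1c2 and 1700025N23Rik, kept by the LPS libraries labelled Lcn2-/-, and Fmo2 and ENSMUSG00000085423, kept by the saline libraries with that label. Their values are given as descriptions, marked as without a test; Cxcl11, Il1a, Acod1, Cd40, Plac8 and Tgm1 each add 1 to the count of calls of the list they appear in.

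How many genes passed depended on single libraries. Over the 16 fits that each left out 1 library, the count ran from 727 to 2267, and 646 genes were called in all of them (313 positive and 333 negative). It fell below the main count by more than 1.5 times without wild-type saline replicate 3 (764) or 4 (897), wild-type LPS replicate 1 (727), 2 (998) or 3 (1010), and LPS replicate 2 (859) or 3 (782) labelled Lcn2-/-.

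Grouping genes by the LPS effect averaged over both labels showed the same form along the range. In this balanced design the errors of the average effect and of the interaction are unrelated only if the groups have the same spread. Saline replicate 4 labelled Lcn2-/- stood apart, so the same spread cannot be assumed. The 42 genes with an average effect above 4 had median effects of 4.32 in wild type and 5.46 in labelled Lcn2-/- and a median interaction of 0.77. The 73 genes between 3 and 4 had a median interaction of 0.91, with 24 called positive and 0 negative. The 119 genes between 2 and 3 had 0.68 (47 positive, 3 negative), and the 286 genes between 1 and 2 had 0.36 (86 positive, 8 negative). On the other side, the 89 genes at -1.5 or below had median effects of -1.55 in wild type and -2.17 in labelled Lcn2-/- and a median interaction of -0.64, with 0 called positive and 14 negative. The 8522 genes between -0.5 and 0 and the 6654 between 0 and 0.5 had median interactions of -0.07 and 0.08. Strongly induced genes thus had positive medians and strongly repressed genes negative ones. Without saline replicate 4 labelled Lcn2-/-, the same groups of genes had medians of 0.95 above 4, 0.91 between 3 and 4, 0.62 between 2 and 3 and 0.35 between 1 and 2. The median was then -0.63 at -1.5 or below, -0.05 between -0.5 and 0, and 0.05 between 0 and 0.5.

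The label difference after LPS made up the larger part of most called interactions. The labels differed more after LPS than after saline in 613 of the 677 positive genes (90.5%) and in 715 of the 853 negative genes (83.8%), against 62.0% of all genes tested. The label difference after LPS was itself called in 572 of the positive and 667 of the negative genes, from 2739 called over all genes (15.8%). After saline it was called in 0 and 1 of them, from 8 over all genes (0.0461%; 1897 at an unadjusted p under 0.05). The saline estimates were small and leaned the other way: their median was -0.09 for positive and 0.11 for negative genes, against 0.34 and -0.30 after LPS. The interaction and these differences come from the same libraries, so their counts are not independent of each other. Most called interactions were modest in size. They were under 0.5 in 373 positive (55.1%) and 497 negative genes (58.3%), at least 1 in 114 and 76, and at least 2 in 24 and 9. The counts of large interactions include genes kept only through 1 group, such as Cxcl11 and Wfikkn1.

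Chemokines for monocytes, neutrophils and T cells led the positive side. Cxcl10, a ligand of the chemokine receptor CXCR3 of T cells (ENSMUSG00000034855, chromosome 5, 92346638 to 92348889 on the minus strand), had the largest positive interaction of the protein-coding genes named. Cxcl10 measured 0.39, 0.241, 0.115 and 0.306 RPKM for wild type and 0.123, 0.176, 0.341 and 0.232 RPKM for labelled Lcn2-/- after saline. With LPS, Cxcl10 stood at 12.3, 11.9, 8.07 and 25.4 RPKM for wild type and 101, 105, 127 and 77.6 RPKM for labelled Lcn2-/-. Every labelled Lcn2-/- LPS library was above every wild-type LPS library, while the saline libraries of the labels overlapped. Cxcl10 rose 54.8-fold in wild type and 496-fold in labelled Lcn2-/-, an interaction of 3.18 ± 0.55 (limma adjusted p = 0.00414). Ccl2, a main attractant of monocytes, showed the same order of groups. For Ccl2, the saline libraries gave 0.176, 0.137, 0.156 and 0.152 RPKM (wild type) and 0.136, 0.087, 0.0978 and 0.156 RPKM (labelled Lcn2-/-). LPS libraries of Ccl2 gave 2.44, 2.24, 3.16 and 3.32 RPKM (wild type) and 16.9, 9.57, 16.3 and 11.5 RPKM (labelled Lcn2-/-). Its LPS groups did not overlap, and its interaction was 2.68 ± 0.30 (limma adjusted p = 0.000231). In bulk tissue, fewer or more cells of a type and less or more RNA per cell cannot be told apart.

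Other chemokine genes with called interactions were the CXCR2 ligand Cxcl2 at 2.55 ± 0.48 (limma adjusted p = 0.00712), the CCR2 ligand Ccl7 at 2.43 ± 0.41 (limma adjusted p = 0.00381) and the second CXCR3 ligand Cxcl9 at 2.16 ± 0.42 (limma adjusted p = 0.00814). Cxcl11, the third CXCR3 ligand, had an estimate of 3.9 (no test) and was kept only through the LPS libraries labelled Lcn2-/-: its mean was 0.118 RPKM in wild type and 1.69 RPKM in labelled Lcn2-/- after LPS, and on log2(RPKM + 0.5) it was 1.83. The annotation lists Cxcl11 as a polymorphic pseudogene. Cxcl12, which retains leukocytes at vessels, was the 1 negative member at -0.40 ± 0.11 (limma adjusted p = 0.0386). Its fall was larger in labelled Lcn2-/- (-1.5 in wild type and -1.9 in labelled Lcn2-/-), and it lost the call without 10 of the 16 libraries (highest adjusted p = 0.0758, without WT saline replicate 3). In all, 7 positive and 1 negative of 20 tested chemokine genes were called, with a median interaction of 1.18 against median LPS effects of 2.42 and 3.7. The neuronal chemokine Cx3cl1, at the highest level of those not called, had -0.18 ± 0.07 (limma adjusted p = 0.108). Over all genes tested the median interaction was -0.003 and 3.9% were called positive. Without saline replicate 4 labelled Lcn2-/-, 10 chemokine genes were called positive and 1 negative.

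Cytokine ligands were called in 5 positive and 1 negative of 17 tested (35.3%, against 8.82% of all genes), with a median of 0.42. The members included the interleukin-1 family alarmin Il1a at 1.36 (no test), the lymphocyte growth factor Il15 at 1.33 ± 0.38 (limma adjusted p = 0.0404) and the death ligand TRAIL (Tnfsf10) at 1.19 ± 0.29 (limma adjusted p = 0.0222). The microglial growth factor Il34 was negative at -0.23 ± 0.06 (limma adjusted p = 0.0413), and Il18, at the highest level of those not called, had 0.02 ± 0.07 (limma adjusted p = 0.863). The positive count ran from 1 to 5 over the leave-one-out fits and fell by more than 1.5 times in 11 of them. Il15 lost the call in 9 of the 16 leave-one-out fits (highest limma adjusted p = 0.0861, without LPS replicate 3 labelled Lcn2-/-), Tnfsf10 in 3 (highest adjusted p = 0.0521, without LPS replicate 3 labelled Lcn2-/-) and Il34 in 10 (highest adjusted p = 0.0829, without LPS replicate 2 labelled Lcn2-/-). On log2(RPKM + 0.5) the interaction was 0.66 for Il1a, 0.74 for Il15 and 0.74 for Tnfsf10.

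Interferon-stimulated genes leaned to the positive side: 19 positive and 0 negative of 29 tested were called (65.5%, against 8.82% of all genes), and 28 of 29 estimates were positive. Their median LPS effect was 2.14 in wild type and 2.99 in labelled Lcn2-/-, and their median interaction was 0.93. Rsad2, the antiviral enzyme viperin, led them. Rsad2 came to 0.29, 0.236, 0.237 and 0.341 RPKM across the wild-type saline libraries and 0.252, 0.262, 0.24 and 0.381 RPKM across those labelled Lcn2-/-. Rsad2 reached 3.45, 3.46, 2.15 and 4.66 RPKM in wild type and 15.9, 33.4, 29.2 and 14.9 RPKM in labelled Lcn2-/- after LPS. The lowest labelled Lcn2-/- LPS library was above the highest wild-type one. Its interaction was 2.7 ± 0.38 (limma adjusted p = 0.00147). Mx2 and Mx1, dynamin-like antiviral GTPases, had 2.48 ± 0.28 (limma adjusted p = 0.000231) and 2.26 ± 0.51 (limma adjusted p = 0.0176). They are near copies of each other and the annotation lists Mx2 as a polymorphic pseudogene, so the share of reads belonging to each is uncertain. Bst2, the virion tether tetherin, rose in both labels (1.95 in wild type and 2.42 in labelled Lcn2-/-) with an interaction of 0.47 ± 0.18 (limma adjusted p = 0.112). The positive count ran from 14 to 20 over the leave-one-out fits.

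Genes induced by interferon gamma leaned the same way. Of this list, 10 positive and 0 negative of 15 tested were called (66.7%, against 8.82% of all genes). All 15 estimates were positive, and the median interaction was 1.06 (8 to 12 called over the leave-one-out fits). Irf1, the transcription factor that relays interferon gamma signals, was expressed before LPS. Irf1 measured 1.49, 1.27, 1.49 and 1.3 RPKM for wild type and 1.11, 1.42, 1.19 and 1.05 RPKM for labelled Lcn2-/- after saline. With LPS, Irf1 stood at 2.83, 2.46, 2.72 and 3.47 RPKM for wild type and 8.01, 6.05, 8.05 and 6.84 RPKM for labelled Lcn2-/-. Its LPS groups did not overlap and its interaction was 1.56 ± 0.17 (limma adjusted p = 0.000231). Cd274, which encodes the T cell checkpoint ligand PD-L1, had 1.62 ± 0.24 (limma adjusted p = 0.0020), and Irf8, a myeloid transcription factor, 0.91 ± 0.20 (limma adjusted p = 0.0149). The immunity-related GTPase Iigp1 did not pass at 1.02 ± 0.33 (limma adjusted p = 0.0647).

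**Figure D2:**
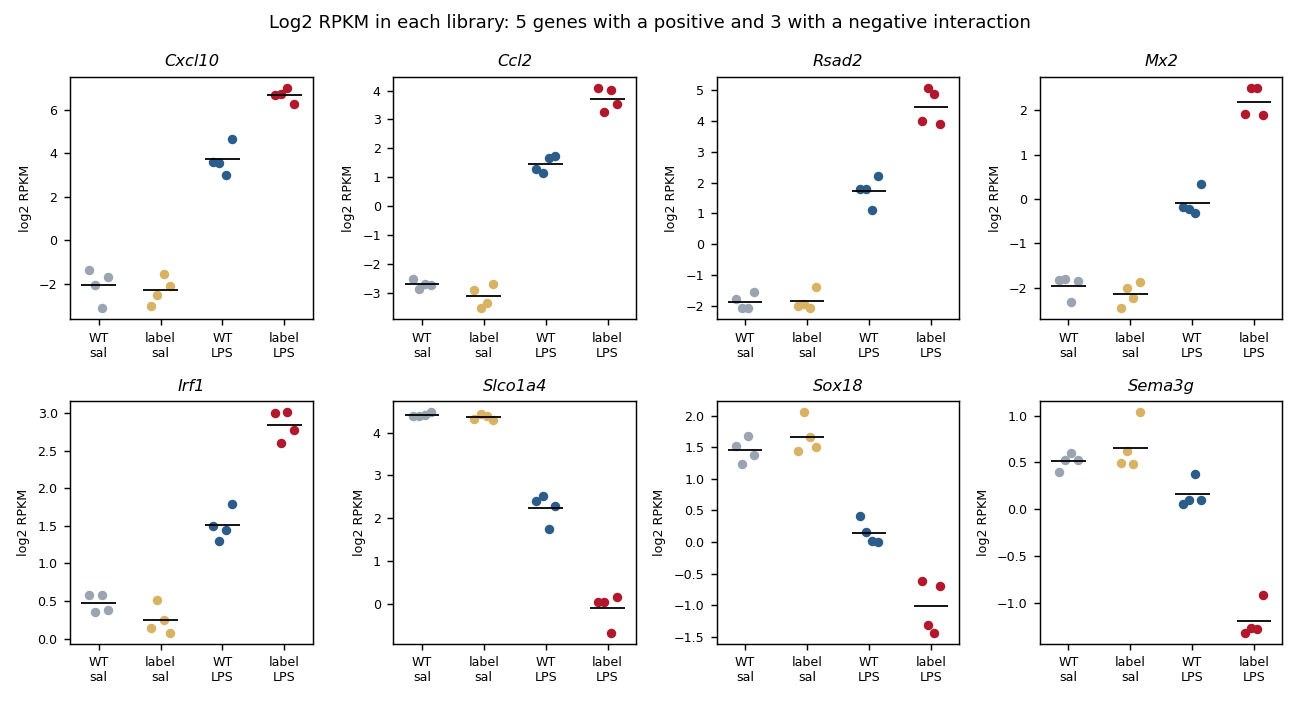
Log2 RPKM in each of the 16 libraries for Cxcl10, Ccl2, Rsad2, Mx2, Irf1, Slco1a4, Sox18 and Sema3g, by group (wild type and labelled Lcn2-/-, after saline and after LPS); each point is 1 library and the line is the mean of 4. The saline groups overlap in each panel, while after LPS all 4 labelled Lcn2-/- libraries lie above wild type in the first 5 panels and below it in the last 3. The genes were chosen among those called in these same libraries, so their separation is only a description.

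Among sensors of LPS and other microbial products, Tlr2, the lipoprotein receptor, had the largest called interaction. For Tlr2, the saline libraries gave 0.549, 0.62, 0.608 and 0.664 RPKM (wild type) and 0.37, 0.725, 0.75 and 0.503 RPKM (labelled Lcn2-/-). LPS libraries of Tlr2 gave 2.07, 2.8, 2.79 and 3.88 RPKM (wild type) and 6.91, 7.85, 9.43 and 6.18 RPKM (labelled Lcn2-/-). Its interaction was 1.52 ± 0.30 (limma adjusted p = 0.00936), with no overlap after LPS. Tlr3, which binds double-stranded RNA, had 0.88 ± 0.13 (limma adjusted p = 0.00226). Cd14, the LPS co-receptor, had 0.85 ± 0.22 (limma adjusted p = 0.0287). Cd14 lost the call in 6 of the 16 leave-one-out fits (highest limma adjusted p = 0.0655, without LPS replicate 3 labelled Lcn2-/-). The list held 4 positive and 0 negative of 15 tested (26.7%, against 8.82% of all genes). Its median interaction was 0.12, or 0.31 without saline replicate 4 labelled Lcn2-/-. The kinase gene Irak1, at the highest level of those not called, had -0.20 ± 0.09 (limma adjusted p = 0.175).

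Downstream, 5 positive and 1 negative of 14 tested genes of NF-kB and its regulators were called (42.9%, against 8.82% of all genes). They included the subunit gene Relb at 0.95 ± 0.20 (limma adjusted p = 0.0127), the atypical IkB gene Nfkbiz at 0.88 ± 0.14 (limma adjusted p = 0.00288) and the inhibitor gene Nfkbie at 0.75 ± 0.17 (limma adjusted p = 0.0163). The classical inhibitor gene Nfkbia rose in both labels (1.4 in wild type and 1.73 in labelled Lcn2-/-) and did not pass at 0.33 ± 0.15 (limma adjusted p = 0.172). The IkB kinase gene Chuk was negative at -0.29 ± 0.07 (limma adjusted p = 0.0222). Chuk lost the call in 2 of the 16 leave-one-out fits (highest limma adjusted p = 0.051, without wild-type saline replicate 3). Of JAK, STAT and IRF genes, 4 positive and 0 negative of 17 tested were called (23.5%). Beside Irf1 and Irf8 these included Stat3, the mediator of interleukin-6 signals, at 0.36 ± 0.08 (limma adjusted p = 0.0165). Jak1 did not pass at 0.14 ± 0.06 (limma adjusted p = 0.129). Cytokine receptors gave 5 positive and 1 negative of 26 tested (23.1%). Among them were Il4ra at 0.68 ± 0.13 (limma adjusted p = 0.00847), Il13ra1 at 0.68 ± 0.19 (limma adjusted p = 0.0405) and Il10ra at 0.59 ± 0.17 (limma adjusted p = 0.0417). Il6ra rose less in labelled Lcn2-/- (1.85 in wild type and 1.1 in labelled Lcn2-/-), with -0.76 ± 0.16 (limma adjusted p = 0.0137). Their positive count ran from 2 to 7 over the leave-one-out fits, and Il13ra1 and Il10ra each lost the call in 10 of 16, with adjusted p up to 0.0848 (without WT saline replicate 3) and 0.0811 (without WT LPS replicate 1). Csf1r, the microglial survival receptor, had -0.05 ± 0.05 (limma adjusted p = 0.531).

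Some inhibitors that limit the response were also more induced in labelled Lcn2-/-. Of 24 feedback genes, 7 were called positive and 1 negative (33.3%, against 8.82% of all genes), with a median of 0.28. Tnfaip3 measured 0.544, 0.477, 0.55 and 0.526 RPKM for wild type and 0.539, 0.539, 0.673 and 0.431 RPKM for labelled Lcn2-/- after saline. With LPS, Tnfaip3 stood at 0.97, 1.11, 1.09 and 1.05 RPKM for wild type and 2.52, 2.57, 3.19 and 2.17 RPKM for labelled Lcn2-/-. Tnfaip3 encodes the NF-kB inhibitor A20, and its interaction was 1.25 ± 0.19 (limma adjusted p = 0.00205), with no overlap between the labels after LPS. Atf3, a stress-induced repressor of cytokine genes, had 1.99 ± 0.32 (limma adjusted p = 0.00288), and Socs3, an inhibitor of JAK kinases, 1.03 ± 0.16 (limma adjusted p = 0.00226). Socs5 was the negative member at -0.19 ± 0.04 (limma adjusted p = 0.0171), and the deubiquitinase gene Cyld did not pass at -0.09 ± 0.05 (limma adjusted p = 0.263).

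Antigen presentation by MHC class I leaned to one side: 11 positive and 0 negative of 21 tested were called (52.4%, against 8.82% of all genes). All 21 estimates were positive, with a median of 0.46. For Tap1, the saline libraries gave 0.626, 0.408, 0.576 and 0.507 RPKM (wild type) and 0.54, 0.757, 0.542 and 0.546 RPKM (labelled Lcn2-/-). LPS libraries of Tap1 gave 2.24, 2.27, 1.83 and 3.23 RPKM (wild type) and 6.35, 6.29, 6.59 and 6.05 RPKM (labelled Lcn2-/-). Tap1, the peptide transporter subunit, had an interaction of 1.26 ± 0.23 (limma adjusted p = 0.00602). The immunoproteasome subunit genes Psmb8 and Psmb9 had 0.80 ± 0.14 (limma adjusted p = 0.00537) and 0.98 ± 0.26 (limma adjusted p = 0.031). The class I heavy chain gene H2-D1 did not pass at 0.46 ± 0.15 (limma adjusted p = 0.0626), nor did B2m, the shared light chain, which rose in both labels (0.85 in wild type and 0.87 in labelled Lcn2-/-, interaction 0.01 ± 0.06 (limma adjusted p = 0.908)). The called count ran from 6 to 15 over the leave-one-out fits, fell by more than 1.5 times without LPS replicate 3 labelled Lcn2-/-, wild-type LPS replicates 1 or 2 or wild-type saline replicates 3 or 4, and was 15 without saline replicate 4 labelled Lcn2-/-. Psmb9 lost the call in 6 of the 16 leave-one-out fits (highest limma adjusted p = 0.0676, without LPS replicate 3 labelled Lcn2-/-). MHC class II genes had a median of 0.51, or 0.31 without saline replicate 4 labelled Lcn2-/-. Of these genes, 0 positive and 0 negative of 8 tested were called by limma (4 at an unadjusted p under 0.05). The protease gene Ctss had -0.05 ± 0.08 (limma adjusted p = 0.723).

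Acute phase genes gave 2 positive and 1 negative of 15 tested: the pentraxin gene Ptx3 at 2.23 ± 0.60 (limma adjusted p = 0.0339), the protease inhibitor gene Serpina3g at 0.93 ± 0.28 (limma adjusted p = 0.0491) and, in the other direction, the glycoprotein gene Lrg1 at -1.48 ± 0.39 (limma adjusted p = 0.030). Agt, which encodes angiotensinogen, did not pass at 0.21 ± 0.16 (limma adjusted p = 0.401). Ptx3 lost the call in 9 of the 16 leave-one-out fits (highest limma adjusted p = 0.0685, without wild-type saline replicate 3), Serpina3g in 14 (highest adjusted p = 0.104, without LPS replicate 3 labelled Lcn2-/-) and Lrg1 in 6 (highest adjusted p = 0.0651, without LPS replicate 3 labelled Lcn2-/-). Lrg1 came to 0.848, 0.69, 1.03 and 0.833 RPKM across the wild-type saline libraries and 2.2, 1.67, 1.16 and 0.643 RPKM across those labelled Lcn2-/-. Lrg1 reached 10.3, 9.71, 7.26 and 9.34 RPKM in wild type and 4.52, 4.84, 4.4 and 6.36 RPKM in labelled Lcn2-/- after LPS. Lrg1 was lower in every labelled Lcn2-/- LPS library than in any wild-type one, and its saline value in replicate 4 was the lowest of its group; without that replicate its interaction was -1.81 (limma adjusted p = 0.000984). Complement genes gave 0 positive and 0 negative of 19 tested by limma (3 at an unadjusted p under 0.05), with a median of 0.08; clusterin (Clu) had 0.11 ± 0.06 (limma adjusted p = 0.242).

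Inflammasome and cell death genes gave 2 positive and 0 negative of 11 tested (18.2%, against 8.82% of all genes). They were Casp4, the sensor of intracellular LPS, at 1.3 ± 0.28 (limma adjusted p = 0.0153) and the kinase gene Ripk1 at 0.61 ± 0.12 (limma adjusted p = 0.00732). Among immunometabolic enzymes, 3 positive and 1 negative of 20 tested were called. The itaconate synthase gene Acod1 had 2.0 (no test), the haem-degrading enzyme gene Hmox1 0.96 ± 0.14 (limma adjusted p = 0.00191) and the cystine transporter gene Slc7a11 0.66 ± 0.10 (limma adjusted p = 0.00215). Ch25h, the enzyme that makes 25-hydroxycholesterol, was negative at -0.88 ± 0.26 (limma adjusted p = 0.0464), while Srxn1 had 0.01 ± 0.07 (limma adjusted p = 0.951). Ch25h lost the call in 12 of the 16 leave-one-out fits (highest limma adjusted p = 0.0955, without LPS replicate 2 labelled Lcn2-/-). On log2(RPKM + 0.5) Ch25h did not pass (-0.47, adjusted p = 0.0709). Prostaglandin genes gave 1 positive and 1 negative of 14 tested (14.3%, against 8.82% of all genes). They were the inducible prostaglandin E synthase gene Ptges at 0.91 ± 0.13 (limma adjusted p = 0.00135) and the leukotriene pathway gene Alox5ap at -0.59 ± 0.17 (limma adjusted p = 0.0446). Alox5ap lost the call in 12 of the 16 leave-one-out fits (highest limma adjusted p = 0.084, without wild-type saline replicate 4).

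Of iron handling genes, the process lipocalin-2 serves, 1 positive and 0 negative of 26 tested were called (3.85%, against 8.82% of all genes), the 1 being Hmox1, with a median of 0.06. The ferritin heavy chain gene Fth1 had 0.04 ± 0.07 (limma adjusted p = 0.703) and the metallothionein gene Mt1 0.08 ± 0.06 (limma adjusted p = 0.443). Among the other lipocalin genes and genes for proposed lipocalin-2 receptors, 0 positive and 0 negative of 6 tested were called by limma (0 at an unadjusted p under 0.05); Ptgds, the brain lipocalin that makes prostaglandin D2, had 0.02 ± 0.05 (limma adjusted p = 0.778).

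**Figure D3:**
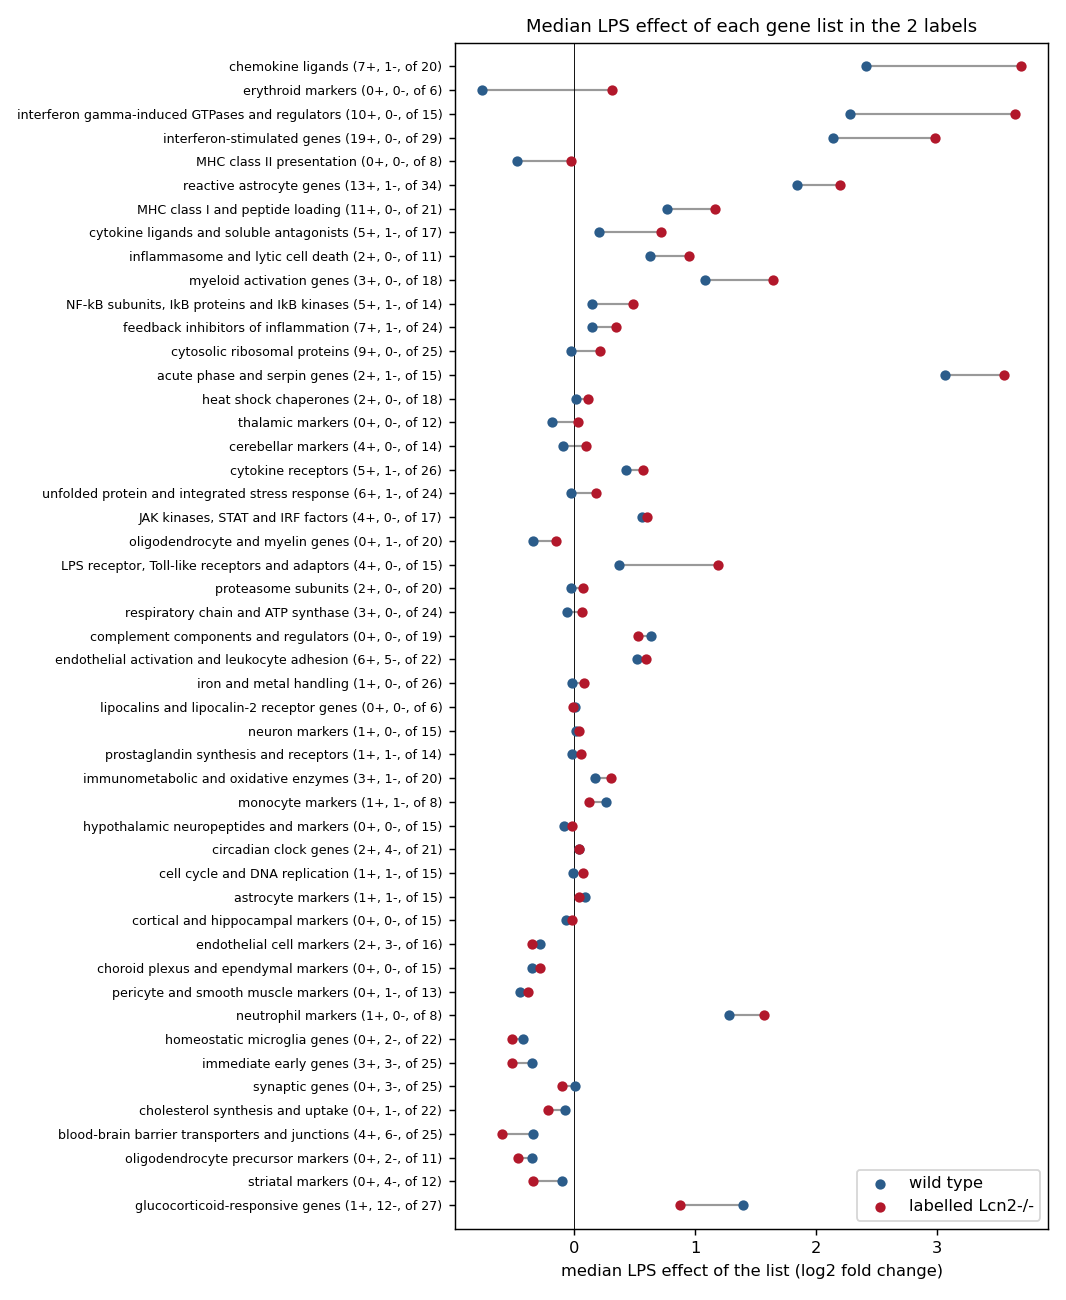
Median LPS effect (log2 fold change) of each gene list with at least 3 members tested, in wild type (blue) and in labelled Lcn2-/- (red), ordered by median interaction; the labels give the members called positive (+) and negative (-) of those tested. Chemokine and interferon lists are near the top with red far to the right of blue, beside erythroid markers with 0 called members, and glucocorticoid-responsive, striatal and precursor lists are at the bottom with red to the left; in 9 of the 49 lists shown, all with a median interaction near 0, that median and the gap between the points differ in sign.

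Vascular genes split. Slco1a4, an organic anion transporter of the blood-brain barrier (ENSMUSG00000030237, chromosome 6, 141805440 to 141856199 on the minus strand), had the largest negative interaction among named genes with a mean of at least 1 RPKM in a group, predicted genes and pseudogenes left out. Slco1a4 measured 21, 21, 21.3 and 22.1 RPKM for wild type and 19.9, 21.4, 20.8 and 19.5 RPKM for labelled Lcn2-/- after saline. With LPS, Slco1a4 stood at 5.29, 5.75, 3.35 and 4.86 RPKM for wild type and 1.03, 1.04, 0.629 and 1.12 RPKM for labelled Lcn2-/-. It fell to lower levels in every labelled Lcn2-/- library than in any wild-type library, with LPS effects of -2.18 in wild type and -4.45 in labelled Lcn2-/- and an interaction of -2.27 ± 0.23 (limma adjusted p = 0.000172). Sox18, a transcription factor of endothelial identity, also fell further. For Sox18, the saline libraries gave 2.86, 2.36, 3.19 and 2.59 RPKM (wild type) and 2.71, 4.14, 3.18 and 2.82 RPKM (labelled Lcn2-/-). LPS libraries of Sox18 gave 1.32, 1.11, 1.01 and 1.0 RPKM (wild type) and 0.653, 0.40, 0.37 and 0.62 RPKM (labelled Lcn2-/-). Its interaction was -1.37 ± 0.26 (limma adjusted p = 0.00748), and -0.86 on log2(RPKM + 0.5).

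Other vascular genes with negative interactions were the semaphorin gene Sema3g at -1.5 ± 0.18 (limma adjusted p = 0.000502), the Notch-induced feedback gene Nrarp at -1.1 ± 0.13 (limma adjusted p = 0.000378), the tight junction gene Ocln at -0.72 ± 0.16 (limma adjusted p = 0.0167), the tricellular junction gene Lsr at -0.79 ± 0.18 (limma adjusted p = 0.0184), and the adhesion molecule genes Pecam1 at -0.46 ± 0.11 (limma adjusted p = 0.0199) and Icam2 at -0.59 ± 0.15 (limma adjusted p = 0.0251). Sema3g came to 1.32, 1.44, 1.52 and 1.44 RPKM across the wild-type saline libraries and 1.41, 1.53, 1.4 and 2.05 RPKM across those labelled Lcn2-/-. Sema3g reached 1.04, 1.07, 1.3 and 1.07 RPKM in wild type and 0.402, 0.416, 0.412 and 0.531 RPKM in labelled Lcn2-/- after LPS. Sema3g changed by -0.35 in wild type, which did not pass (adjusted p = 0.0555), and fell by 1.85 in labelled Lcn2-/-. Positive interactions were held by Icam1, the leukocyte adhesion molecule, at 1.28 ± 0.14 (limma adjusted p = 0.000231), the guidance receptor gene Robo4 at 1.23 ± 0.11 (limma adjusted p = 6.8e-05), VE-cadherin (Cdh5) at 0.78 ± 0.13 (limma adjusted p = 0.0030), uridine phosphorylase 1 (Upp1) at 1.26 ± 0.16 (limma adjusted p = 0.000544) and the urokinase receptor gene Plaur at 1.45 ± 0.42 (limma adjusted p = 0.0429).

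Robo4 measured 1.43, 1.38, 1.5 and 1.44 RPKM for wild type and 1.54, 1.49, 1.54 and 1.39 RPKM for labelled Lcn2-/- after saline. With LPS, Robo4 stood at 3.3, 3.27, 3.67 and 3.13 RPKM for wild type and 7.26, 8.79, 9.12 and 7.28 RPKM for labelled Lcn2-/-. Robo4 had the smallest limma adjusted p of the named genes with a positive interaction, and its labels did not overlap after LPS. For Icam1, the saline libraries gave 0.903, 0.799, 0.876 and 0.98 RPKM (wild type) and 0.971, 1.06, 0.868 and 1.01 RPKM (labelled Lcn2-/-). LPS libraries of Icam1 gave 6.1, 6.84, 7.35 and 7.16 RPKM (wild type) and 19.8, 17.8, 21.2 and 14.9 RPKM (labelled Lcn2-/-). Icam1 likewise separated fully. Ly6c1, an endothelial surface marker, rose in wild type alone. Ly6c1 came to 5.9, 6.72, 7.89 and 7.23 RPKM across the wild-type saline libraries and 8.31, 7.74, 7.37 and 8.53 RPKM across those labelled Lcn2-/-. Ly6c1 reached 14.8, 13.2, 13.4 and 13 RPKM in wild type and 8.78, 7.63, 7.25 and 8.04 RPKM in labelled Lcn2-/- after LPS. Its LPS effects were 0.98 in wild type and -0.01 in labelled Lcn2-/- and its interaction was -0.99 ± 0.12 (limma adjusted p = 0.000319).

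By list, endothelial activation genes gave 6 positive and 5 negative of 22 tested (median 0.07), barrier transporters and junctions 4 positive and 6 negative of 25 tested (median -0.17), endothelial markers 2 positive and 3 negative of 16 tested (median -0.04), and pericyte and smooth muscle markers 0 positive and 1 negative of 13 tested (median -0.05). The positive counts ran from 3 to 6 and 1 to 4 for the first and second lists over the leave-one-out fits, and the negative counts from 2 to 6 and 5 to 7. Barrier genes with smaller positive interactions were the junction gene F11r at 0.43 ± 0.11 (limma adjusted p = 0.0264) and the lactate transporter gene Slc16a1 at 0.41 ± 0.11 (limma adjusted p = 0.0373). Claudin-5 (Cldn5) did not pass at 0.41 ± 0.18 (limma adjusted p = 0.155), nor did the chemokine scavenger gene Ackr1 at 0.03 ± 0.05 (limma adjusted p = 0.652) or Vtn, a pericyte gene, at -0.02 ± 0.06 (limma adjusted p = 0.869). Vwf was negative at -0.69 ± 0.19 (limma adjusted p = 0.0349), as was the peptidase gene Anpep at -0.96 ± 0.21 (limma adjusted p = 0.0169), which did not pass on log2(RPKM + 0.5) (-0.32, adjusted p = 0.073). Plaur lost the call in 12 of the 16 leave-one-out fits (highest limma adjusted p = 0.0851, without LPS replicate 3 labelled Lcn2-/-), F11r in 4 (highest adjusted p = 0.0589, without LPS replicate 3 labelled Lcn2-/-), Slc16a1 in 10 (highest adjusted p = 0.079, without wild-type LPS replicate 1), Vwf in 11 (highest adjusted p = 0.0676, without LPS replicate 3 labelled Lcn2-/-) and Icam2 in 1 (highest adjusted p = 0.0537, without wild-type saline replicate 4).

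Markers of blood cells were examined because the immune genes above are also expressed by leukocytes. Levels were summed over all 17 listed neutrophil markers, including those under the filter. Saline sums were 5.34 to 11.6 RPKM in wild type and 7.57 to 9.82 RPKM in labelled Lcn2-/-. LPS sums were 13.9 to 20.5 RPKM in wild type and 14.3 to 32.2 RPKM in labelled Lcn2-/-. Of the 8 neutrophil markers tested, 1 was called positive and 0 negative (12.5%, against 8.82% of all genes). It was the histamine-forming enzyme gene Hdc at 1.16 ± 0.32 (limma adjusted p = 0.0373), while S100a9 had -0.05 ± 0.43 (limma adjusted p = 0.951). Over all 12 listed monocyte markers the sums were 9.59 to 10.5, 9.59 to 10.8, 11.7 to 13.4 and 12.7 to 13.3 RPKM in the same order. Of the 8 that passed the filter, Plac8 at 1.63 (no test) and F13a1 at -0.74 ± 0.22 (limma adjusted p = 0.0491) were called. Fibronectin (Fn1) was not, at -0.25 ± 0.09 (limma adjusted p = 0.0985). Of 17 lymphocyte markers 2 were tested, and the sums over all 17 were 5.73 to 6.94, 6.4 to 7.67, 4.52 to 6.03 and 5.3 to 6.06 RPKM. Cd4 had -0.43 ± 0.13 (limma adjusted p = 0.0446), and Trbc2 0.05 ± 0.18 (limma adjusted p = 0.872). Neutrophil markers under the filter included Ly6g, Mpo and Elane, lymphocyte markers Cd3e and Cd8a, and monocyte markers Ccr2. The 6 erythroid markers gave 0 calls by limma (6 at an unadjusted p under 0.05), with a median interaction of 1.09 and 5 of 6 estimates positive. The 4 haemoglobin genes among them had interactions of 0.98 to 1.35 with limma adjusted p = 0.0664 to 0.137. Their summed level was 4.75, 5.37, 11 and 11.5 RPKM in wild type and 5.61, 6.39, 7.31 and 4.12 RPKM in labelled Lcn2-/- after saline, and 3.56, 4.4, 5.23 and 3.98 and 5.44, 7.76, 7.03 and 8.42 RPKM after LPS. All labelled Lcn2-/- LPS libraries were above all wild-type LPS libraries in that sum, and 2 wild-type saline libraries were the highest of the 16. The haemoglobin genes were singled out after their values were seen. Hdc lost the call in 9 of the 16 leave-one-out fits (highest limma adjusted p = 0.0785, without LPS replicate 3 labelled Lcn2-/-), F13a1 in 13 (highest adjusted p = 0.0988, without LPS replicate 3 labelled Lcn2-/-) and Cd4 in 12 (highest adjusted p = 0.0929, without wild-type LPS replicate 1). The part of these cells in the interactions was not tested.

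Reactive astrocyte genes gave 13 positive and 1 negative of 34 tested (41.2%, against 8.82% of all genes), with a median of 0.47. Several of them, such as Cxcl10, Psmb8 and Cd14, are also on the immune lists. Their positive count ran from 7 to 16 over the leave-one-out fits and fell by more than 1.5 times without LPS replicate 3 labelled Lcn2-/-, wild-type LPS replicates 1 or 2 or wild-type saline replicates 3 or 4. The transglutaminase gene Tgm1 had 1.72 (no test) and the filament gene Gfap 0.41 ± 0.12 (limma adjusted p = 0.0445), which both rose in both labels. Gfap lost the call in 12 of the 16 leave-one-out fits (highest limma adjusted p = 0.088, without wild-type saline replicate 4). Astrocyte identity markers gave 1 positive and 1 negative of 15 tested (13.3%, against 8.82% of all genes, median -0.04). Glutamine synthetase (Glul) was the negative one at -0.19 ± 0.04 (limma adjusted p = 0.0178), and aldolase C (Aldoc) did not pass at 0.07 ± 0.05 (limma adjusted p = 0.313).

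Myeloid activation genes gave 3 positive and 0 negative of 18 tested (16.7%, against 8.82% of all genes, median 0.30). They were the co-stimulatory receptor gene Cd40 at 1.87 (no test), the Fc receptor gene Fcgr1 at 0.73 ± 0.11 (limma adjusted p = 0.0016) and the mitochondrial protein gene Tspo at 0.62 ± 0.15 (limma adjusted p = 0.0222). Osteopontin (Spp1) had -0.08 ± 0.14 (limma adjusted p = 0.728). On log2(RPKM + 0.5) Cd40 had 1.02. Homeostatic microglia genes gave 0 positive and 2 negative of 22 tested (9.09%, near the 8.82% of all genes; median -0.07), the microglial identity factor gene Sall1 at -0.56 ± 0.13 (limma adjusted p = 0.0214) and the efferocytosis receptor gene Mertk at -0.38 ± 0.09 (limma adjusted p = 0.0172). Sall1 lost the call in 1 of the 16 leave-one-out fits (highest limma adjusted p = 0.0502, without wild-type saline replicate 3). Sparc had 0.03 ± 0.09 (limma adjusted p = 0.874). Myelin genes gave 0 positive and 1 negative of 20 tested (5.0%; median 0.14), with Mal at -0.33 ± 0.07 (limma adjusted p = 0.0143) and Olig1 at 0.19 ± 0.13 (limma adjusted p = 0.341). Precursor markers gave 0 positive and 2 negative of 11 tested (18.2%, median -0.19). They were the receptor gene Gpr17 at -1.06 ± 0.24 (limma adjusted p = 0.0176) and Bmp4 at -0.85 ± 0.23 (limma adjusted p = 0.0345). Bmp4 lost the call in 13 of the 16 leave-one-out fits (highest limma adjusted p = 0.0739, without LPS replicate 3 labelled Lcn2-/-). Choroid plexus and ependymal markers gave 0 positive and 0 negative of 15 tested by limma (1 at an unadjusted p under 0.05; median -0.05), with transthyretin (Ttr) at -0.01 ± 0.10 (limma adjusted p = 0.964).

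Glucocorticoid-responsive genes held more negative calls than any other list, though the lists differ in size. Of 27 tested, 1 positive and 12 negative were called (48.1%, against 8.82% of all genes), with a median interaction of -0.32. The median LPS effect was 1.4 in wild type and 0.88 in labelled Lcn2-/-. The median label difference of the list was 0.17 after saline and -0.11 after LPS. Fkbp5, the co-chaperone that dampens the glucocorticoid receptor, is an example. Fkbp5 measured 4.42, 4.59, 4.71 and 4.58 RPKM for wild type and 5.57, 5.68, 5.52 and 4.68 RPKM for labelled Lcn2-/- after saline. With LPS, Fkbp5 stood at 30.4, 28.8, 27.9 and 29.99 RPKM for wild type and 26.1, 22.7, 24 and 28.1 RPKM for labelled Lcn2-/-. The labels overlapped after either injection, and the interaction was -0.44 ± 0.09 (limma adjusted p = 0.0132). Plin4 encodes a lipid droplet protein. For Plin4, the saline libraries gave 0.354, 0.551, 0.497 and 0.565 RPKM (wild type) and 0.907, 0.747, 0.571 and 0.743 RPKM (labelled Lcn2-/-). LPS libraries of Plin4 gave 12.6, 13.1, 13.1 and 12 RPKM (wild type) and 11.6, 10.9, 10.8 and 12 RPKM (labelled Lcn2-/-). Its LPS libraries overlapped between the labels, and its saline libraries were separated by a narrow margin. Its interaction was -0.76 ± 0.20 (limma adjusted p = 0.0279).

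The arrestin-domain gene Arrdc2 had -0.94 ± 0.20 (limma adjusted p = 0.0138) and Hif3a, a hypoxia-inducible factor, -0.88 ± 0.24 (limma adjusted p = 0.0329). The 1 positive member was Tiparp, an ADP-ribosyltransferase, at 0.72 ± 0.13 (limma adjusted p = 0.00636), and the cell cycle inhibitor gene Cdkn1a rose in both labels (3.04 in wild type and 3.0 in labelled Lcn2-/-) with -0.03 ± 0.10 (limma adjusted p = 0.854). The negative count ran from 8 to 12 over the leave-one-out fits, and without saline replicate 4 labelled Lcn2-/- the median was -0.22. Plin4 lost the call in 6 of the 16 leave-one-out fits (highest limma adjusted p = 0.0606, without LPS replicate 3 labelled Lcn2-/-) and Hif3a in 6 (highest adjusted p = 0.0672, without wild-type saline replicate 3). On log2(RPKM + 0.5) their interactions were -0.48 and -0.59.

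Clock genes gave 2 positive and 4 negative of 21 tested (28.6%, against 8.82% of all genes), with a median of -0.03. Per2, a repressor of the circadian clock, was high in labelled Lcn2-/- after saline and low after LPS. Per2 came to 3.29, 4.58, 4.51 and 4.66 RPKM across the wild-type saline libraries and 6.55, 6.13, 5.79 and 7.15 RPKM across those labelled Lcn2-/-. Per2 reached 3.86, 3.46, 3.95 and 3.64 RPKM in wild type and 2.96, 2.15, 2.3 and 3.27 RPKM in labelled Lcn2-/- after LPS. The labels did not overlap after either injection, in opposite order, and the interaction was -1.1 ± 0.18 (limma adjusted p = 0.00347). Cry1, its partner, had -0.54 ± 0.12 (limma adjusted p = 0.0149), Nr1d2 -0.37 ± 0.09 (limma adjusted p = 0.0263), the repressor gene Nfil3 0.79 ± 0.13 (limma adjusted p = 0.00347) and Arntl2 0.37 ± 0.10 (limma adjusted p = 0.0345). Nr1d1 did not pass at 0.05 ± 0.12 (limma adjusted p = 0.799). The clock counts were 1 to 2 positive and 2 to 6 negative over the leave-one-out fits. Nr1d2 lost the call in 4 of the 16 leave-one-out fits (highest limma adjusted p = 0.0594, without wild-type saline replicate 3) and Arntl2 in 9 (highest adjusted p = 0.0729, without LPS replicate 3 labelled Lcn2-/-).

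Immediate early genes gave 3 positive and 3 negative of 25 tested (24%; median -0.09). For Arc, the saline libraries gave 33, 36.7, 34.7 and 32.6 RPKM (wild type) and 28.1, 39, 39.5 and 50.6 RPKM (labelled Lcn2-/-). LPS libraries of Arc gave 8.41, 9.75, 9.25 and 13.5 RPKM (wild type) and 6.23, 4.42, 4.5 and 5.41 RPKM (labelled Lcn2-/-). Arc, a synaptic activity-regulated gene, fell in both labels and further in labelled Lcn2-/-, with no overlap after LPS and an interaction of -1.15 ± 0.23 (limma adjusted p = 0.010). Egr3 had -0.87 ± 0.20 (limma adjusted p = 0.0173) and Ier5 -0.28 ± 0.08 (limma adjusted p = 0.0371). Ier5 lost the call in 11 of the 16 leave-one-out fits (highest limma adjusted p = 0.078, without LPS replicate 3 labelled Lcn2-/-). On the positive side were the stress-inducible Gadd45b at 0.58 ± 0.11 (limma adjusted p = 0.00814), Ier2 at 0.57 ± 0.14 (limma adjusted p = 0.0204) and the AP-1 subunit gene Jun at 0.42 ± 0.08 (limma adjusted p = 0.00666). Egr1 did not pass at -0.39 ± 0.14 (limma adjusted p = 0.0951).

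Of the unfolded protein and integrated stress response, 6 positive and 1 negative of 24 tested were called (29.2%, against 8.82% of all genes, median 0.15). Hspa5, the endoplasmic reticulum chaperone BiP, is shown in full. Hspa5 measured 38.9, 40.9, 39.9 and 38 RPKM for wild type and 41, 39.9, 41.1 and 40.8 RPKM for labelled Lcn2-/- after saline. With LPS, Hspa5 stood at 37.6, 40.2, 46.5 and 43.4 RPKM for wild type and 66.3, 66.1, 71.8 and 67.5 RPKM for labelled Lcn2-/-. Its wild-type libraries overlapped between injections and its labelled Lcn2-/- LPS libraries lay above all others, with an interaction of 0.65 ± 0.07 (limma adjusted p = 0.000231). Ppp1r15a, which restarts translation, had 0.53 ± 0.12 (limma adjusted p = 0.0184), and the secreted chaperone gene Manf 0.46 ± 0.08 (limma adjusted p = 0.0047). Ern1, the sensor IRE1, rose in wild type and fell in labelled Lcn2-/- (0.29 and -0.27), with -0.55 ± 0.13 (limma adjusted p = 0.0192), and Atf4 did not pass at 0.07 ± 0.06 (limma adjusted p = 0.479). Cytosolic ribosomal protein genes gave 9 positive and 0 negative of 25 tested (median 0.25, 5 to 13 called over the leave-one-out fits, fewest without LPS replicates 2 or 3 labelled Lcn2-/- or wild-type saline replicate 3), with Rps4x at 0.38 ± 0.08 (limma adjusted p = 0.0114), Rpl18 at 0.32 ± 0.07 (limma adjusted p = 0.0137), Rps19 at 0.32 ± 0.08 (limma adjusted p = 0.0279) and Rplp1 at 0.12 ± 0.07 (limma adjusted p = 0.26). The share of the ribosomal list called was 36.0%, against 8.82% of all genes. Ribosomal protein genes have many processed copies, so their counting is uncertain.

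Heat shock chaperones gave 2 positive and 0 negative of 18 tested (median 0.18): Bag3 at 0.61 ± 0.18 (limma adjusted p = 0.0424) and Cryab at 0.34 ± 0.10 (limma adjusted p = 0.0445), with Hsp90ab1 at 0.05 ± 0.04 (limma adjusted p = 0.478). Respiratory chain genes gave 3 positive and 0 negative of 24 tested (median 0.09), Ndufb5 at 0.37 ± 0.08 (limma adjusted p = 0.016), Atp5o at 0.33 ± 0.10 (limma adjusted p = 0.0434) and Cox4i1 at 0.20 ± 0.06 (limma adjusted p = 0.0433), with Ndufa4 at 0.04 ± 0.06 (limma adjusted p = 0.644). Proteasome subunits gave 2 positive and 0 negative of 20 tested (median 0.11), Psmb3 at 0.31 ± 0.08 (limma adjusted p = 0.0226) and Psma3 at 0.20 ± 0.06 (limma adjusted p = 0.0495), with Psmb5 at 0.04 ± 0.07 (limma adjusted p = 0.768). Cholesterol genes gave 0 positive and 1 negative of 22 tested (median -0.11), the exporter gene Abcg1 at -0.42 ± 0.09 (limma adjusted p = 0.0161), with Hmgcs1 at -0.01 ± 0.07 (limma adjusted p = 0.961). Cell cycle genes gave 1 positive and 1 negative of 15 tested (median -0.03), cyclin A2 (Ccna2) at 0.52 ± 0.11 (limma adjusted p = 0.0127) and cyclin D2 (Ccnd2) at -0.53 ± 0.14 (limma adjusted p = 0.0271). The share called was 11.1% of chaperones, 12.5% of respiratory chain genes and 13.3% of cell cycle genes, against 8.82% of all genes. For proteasome subunits it lay between 8.82% and 11.1%, and for cholesterol genes it was 4.55%. The counts of called genes in these lists are small and depend on single libraries. Over the leave-one-out fits they ran from 0 to 4 for chaperones and the proteasome, and from 1 to 6 for the respiratory chain. Bag3 lost the call in 9 of the 16 leave-one-out fits (highest limma adjusted p = 0.0894, without LPS replicate 3 labelled Lcn2-/-), Cryab in 12 (highest adjusted p = 0.0916, without LPS replicate 3 labelled Lcn2-/-), Atp5o in 11 (highest adjusted p = 0.0916, without LPS replicate 3 labelled Lcn2-/-), Cox4i1 in 10 (highest adjusted p = 0.091, without wild-type saline replicate 3), Psma3 in 12 (highest adjusted p = 0.104, without wild-type saline replicate 3), Psmb3 in 2 (highest adjusted p = 0.0528, without wild-type LPS replicate 1), Ccnd2 in 5 (highest adjusted p = 0.0596, without wild-type LPS replicate 1) and Rps19 in 3 (highest adjusted p = 0.0629, without wild-type LPS replicate 1).

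Neuron markers gave 1 positive and 0 negative of 15 tested (6.67%, near the 8.82% of all genes), with a median of 0.02. The growth-cone gene Stmn2 was the called one at 0.19 ± 0.04 (limma adjusted p = 0.0132); Thy1 had 0.02 ± 0.03 (limma adjusted p = 0.724) and Snap25 0.00 ± 0.05 (limma adjusted p = 0.987). Striatal markers gave 0 positive and 4 negative of 12 tested (33.3%, against 8.82% of all genes, median -0.20, 2 to 5 called negative over the leave-one-out fits). For Gpr6, the saline libraries gave 3.72, 3.01, 3.07 and 3.42 RPKM (wild type) and 3.73, 3.69, 4.31 and 3.56 RPKM (labelled Lcn2-/-). LPS libraries of Gpr6 gave 4.12, 3.34, 3.53 and 3.2 RPKM (wild type) and 2.6, 2.09, 2.16 and 2.51 RPKM (labelled Lcn2-/-). The labelled Lcn2-/- LPS libraries lay below all 12 others, and the wild-type libraries overlapped between injections. Gpr6, an orphan receptor of striatopallidal neurons, had -0.81 ± 0.14 (limma adjusted p = 0.00381), the dopamine receptor genes Drd2 and Drd1 -0.46 ± 0.11 (limma adjusted p = 0.0217) and -0.48 ± 0.14 (limma adjusted p = 0.0426), and the enkephalin gene Penk 0.01 ± 0.07 (limma adjusted p = 0.953). Cerebellar markers gave 4 positive and 0 negative of 14 tested (28.6%, median 0.17, 2 to 6 over the leave-one-out fits). They included Fat2 at 0.49 ± 0.12 (limma adjusted p = 0.0211), Pcp2 at 0.39 ± 0.07 (limma adjusted p = 0.00761) and Cbln1 at 0.28 ± 0.07 (limma adjusted p = 0.027). Pvalb did not pass at 0.26 ± 0.08 (limma adjusted p = 0.0533).

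All 12 thalamic markers had positive estimates (median 0.18) and 0 were called by limma (2 at an unadjusted p under 0.05); Calb2 had 0.21 ± 0.17 (limma adjusted p = 0.42). Cortical and hippocampal markers gave 0 positive and 0 negative of 15 tested by limma (1 at an unadjusted p under 0.05; median -0.04, Lamp5 at 0.03 ± 0.07 (limma adjusted p = 0.792)), and hypothalamic genes 0 positive and 0 negative of 15 tested by limma (1 at an unadjusted p under 0.05; median 0.01, Sst at -0.05 ± 0.06 (limma adjusted p = 0.629)). Regional markers move with the share of each region in a hemi-brain piece, and whether that share differed between libraries was not tested. Synaptic genes gave 0 positive and 3 negative of 25 tested (median -0.11): the scaffold genes Shank1 at -0.45 ± 0.11 (limma adjusted p = 0.0245), Shank3 at -0.31 ± 0.08 (limma adjusted p = 0.0247) and Dlg4 at -0.18 ± 0.05 (limma adjusted p = 0.0373). Drd1 lost the call in 9 of the 16 leave-one-out fits (highest limma adjusted p = 0.0894, without LPS replicate 3 labelled Lcn2-/-), Cbln1 in 5 (highest adjusted p = 0.0607, without LPS replicate 3 labelled Lcn2-/-), Shank1 in 5 (highest adjusted p = 0.0555, without LPS replicate 3 labelled Lcn2-/-), Shank3 in 4 (highest adjusted p = 0.0576, without LPS replicate 3 labelled Lcn2-/-) and Dlg4 in 12 (highest adjusted p = 0.0812, without LPS replicate 3 labelled Lcn2-/-).

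**Figure D4:**
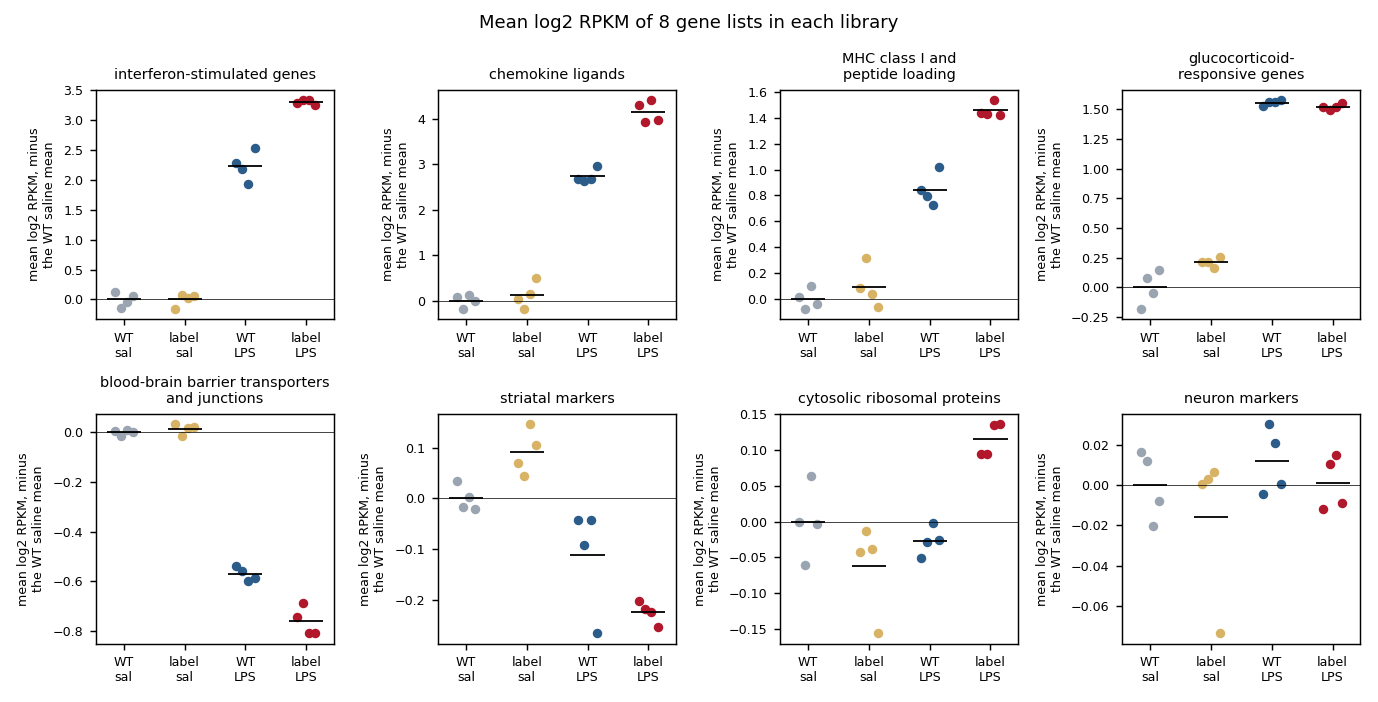
Mean log2 RPKM of 8 gene lists in each library, minus the mean of the 4 wild-type saline libraries, by group; each point is 1 library and the line is the group mean. After LPS the labelled Lcn2-/- libraries lie above wild type for interferon-stimulated, chemokine, MHC class I and ribosomal lists and below it for barrier genes, the glucocorticoid list separates the labels after saline more than after LPS, and neuron markers lie in a narrow band near 0.

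Some genes were moved by LPS in opposite directions. Both LPS effects were called, with opposite signs, in 32 genes: 18 rose in wild type and fell in labelled Lcn2-/-, and 14 did the reverse. The interaction of all 32 was called without saline replicate 4 labelled Lcn2-/-, and that of 28 in all 16 leave-one-out fits, which does not require both LPS effects to be called. The number of genes in this class ran from 11 to 83 over those fits, being lowest without LPS replicate 3 labelled Lcn2-/- (11), wild-type saline replicate 3 (15) and LPS replicate 2 labelled Lcn2-/- (15), with 19 without wild-type LPS replicate 1 and 20 without wild-type saline replicate 4. It rose to 52 without wild-type saline replicate 1 and to 83 without saline replicate 4 labelled Lcn2-/-.

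Srarp, which encodes a steroid receptor-associated protein (ENSMUSG00000070637, chromosome 4, 141432672 to 141436105 on the minus strand), had the largest interaction of the 32. Srarp came to 1.33, 1.83, 1.54 and 1.41 RPKM across the wild-type saline libraries and 1.65, 1.63, 1.56 and 1.25 RPKM across those labelled Lcn2-/-. Srarp reached 3.23, 3.3, 2.0 and 2.87 RPKM in wild type and 1.29, 0.539, 0.488 and 0.904 RPKM in labelled Lcn2-/- after LPS. It rose by 0.88 in wild type and fell by 1.02 in labelled Lcn2-/-, an interaction of -1.91 ± 0.35 (limma adjusted p = 0.00636); LPS replicate 1 labelled Lcn2-/- lay within the range of its saline group. Mgp, the matrix Gla protein that inhibits calcification of vessels, was expressed at a higher level. Mgp measured 41.8, 55.8, 50.05 and 48.1 RPKM for wild type and 51.1, 49.6, 50.7 and 47.2 RPKM for labelled Lcn2-/- after saline. With LPS, Mgp stood at 69.9, 66.2, 66.2 and 68.8 RPKM for wild type and 40.2, 34.7, 31 and 42 RPKM for labelled Lcn2-/-. Its wild-type LPS libraries were above, and its labelled Lcn2-/- LPS libraries below, every saline library of their own label. Its LPS effects were 0.48 in wild type and -0.43 in labelled Lcn2-/- and its interaction was -0.91 ± 0.12 (limma adjusted p = 0.00105). The fatty acid hydroxylase gene Cyp4f15 had effects of 0.30 in wild type and -0.34 in labelled Lcn2-/-, and the interaction was -0.64 ± 0.11 (limma adjusted p = 0.00492).

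In the reverse direction, Rnf122, an E3 ubiquitin ligase gene, was the first. For Rnf122, the saline libraries gave 1.38, 1.38, 1.52 and 1.55 RPKM (wild type) and 1.39, 1.39, 1.45 and 1.43 RPKM (labelled Lcn2-/-). LPS libraries of Rnf122 gave 1.05, 0.958, 1.12 and 1.14 RPKM (wild type) and 2.14, 2.26, 2.31 and 1.55 RPKM (labelled Lcn2-/-). Its LPS effects were -0.45 in wild type and 0.53 in labelled Lcn2-/- and its interaction 0.98 ± 0.15 (limma adjusted p = 0.0026), without overlap after LPS. The DNA polymerase alpha gene Pola1 had 0.77 ± 0.18 (limma adjusted p = 0.0184) (0.41 on log2(RPKM + 0.5)), the small GTPase gene Rrad 0.77 ± 0.16 (limma adjusted p = 0.0136) and Abtb2 0.61 ± 0.13 (limma adjusted p = 0.0117). The remaining 3 of the 10 with the largest effects in both labels were not protein-coding: DQ267100, a small nucleolar RNA, at -1.73 ± 0.39 (limma adjusted p = 0.017), Gm12868, an antisense transcript, at -1.04 ± 0.18 (limma adjusted p = 0.00484), and Gm10657 at -1.79 ± 0.46 (limma adjusted p = 0.0278). Gm10657 lost the call in 5 of the 16 leave-one-out fits (highest limma adjusted p = 0.0631, without wild-type LPS replicate 1). Their LPS effects were 0.86 and -0.87, 0.70 and -0.34, and 0.94 and -0.85, in wild type and labelled Lcn2-/-.

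**Figure D5:**
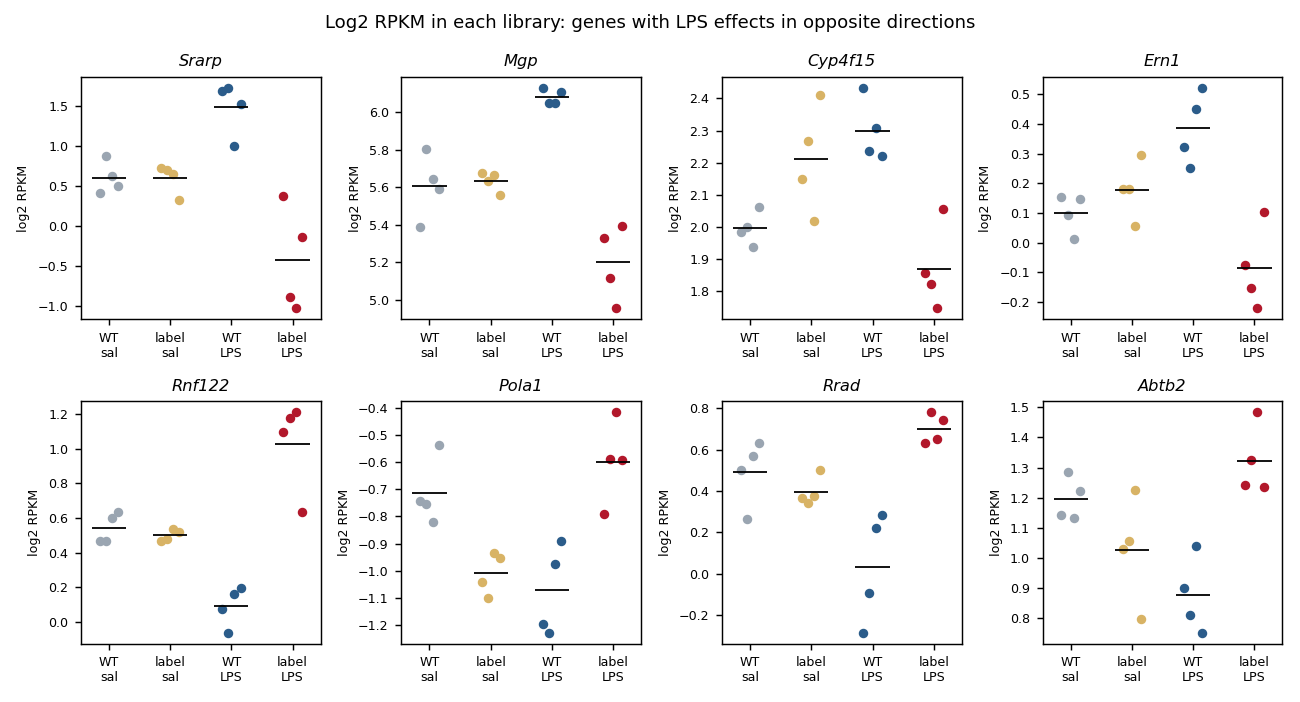
Log2 RPKM in each of the 16 libraries for 8 genes whose LPS effects were called in opposite directions: Srarp, Mgp, Cyp4f15 and Ern1 (higher after LPS in wild type) and Rnf122, Pola1, Rrad and Abtb2 (lower after LPS in wild type); each point is 1 library and the line is the mean of 4. After LPS the labels do not overlap in any of the 8 panels. The 8 genes were chosen for effects called in these same libraries, so their separation is only a description.

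In 354 of the positive and 579 of the negative genes, no LPS effect was called in wild type. Wfikkn1, a secreted protease-inhibitor-domain protein, was one of them, and is described with no test because only the LPS libraries labelled Lcn2-/- carried it past the filter. Wfikkn1 came to 0.311, 0.253, 0.381 and 0.413 RPKM across the wild-type saline libraries and 0.301, 0.259, 0.24 and 0.431 RPKM across those labelled Lcn2-/-. Wfikkn1 reached 0.319, 0.346, 0.342 and 0.396 RPKM in wild type and 0.993, 2.28, 2.4 and 0.883 RPKM in labelled Lcn2-/- after LPS. Its wild-type libraries overlapped between injections, and its LPS effects were 0.07 in wild type and 2.3 in labelled Lcn2-/-. LPS replicates 2 and 3 labelled Lcn2-/- were more than 2-fold above replicates 1 and 4, and the interaction estimate was 2.24, or 1.31 on log2(RPKM + 0.5). Others among the 10 with the largest interactions were protein-coding. Psors1c2 had 2.14 (no test), the oxidase gene Fmo2 -2.09 (no test) and Frmd7 -3.39 ± 1.01 (limma adjusted p = 0.0478), and on log2(RPKM + 0.5) they had 0.77, -0.79 and -1.13. The 6 that were not protein-coding were ENSMUSG00000085423 (-3.14), Gm27353 (-2.62), Gm36956 (-2.61), Snora23 (-2.32), Gm10766 (-2.21) and 1700025N23Rik (2.1). Frmd7 lost the call in 12 of the 16 leave-one-out fits (highest limma adjusted p = 0.10, without wild-type saline replicate 3), Snora23 in 12 (highest adjusted p = 0.0913, without wild-type saline replicate 3) and Gm10766 in 14 (highest adjusted p = 0.0928, without LPS replicate 3 labelled Lcn2-/-). Snora23 (limma adjusted p = 0.0661) did not pass on log2(RPKM + 0.5).

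The remaining genes with the largest interactions in either direction spanned several functions. Positive ones were the channel gene Calhm6 at 2.68 ± 0.41 (limma adjusted p = 0.00217), the atypical chemerin receptor gene Ccrl2 at 2.18 ± 0.27 (limma adjusted p = 0.000565) and Art3, of the ADP-ribosyltransferase family, at 2.17 ± 0.23 (limma adjusted p = 0.000183). For Art3, the saline libraries gave 0.901, 0.941, 0.985 and 0.92 RPKM (wild type) and 0.791, 0.832, 1.02 and 1.06 RPKM (labelled Lcn2-/-). LPS libraries of Art3 gave 1.54, 1.5, 1.53 and 2.27 RPKM (wild type) and 7.14, 8.43, 9.32 and 5.43 RPKM (labelled Lcn2-/-). The labels did not overlap for Art3 after LPS. Negative ones were the somatostatin receptor gene Sstr4 at -1.45 ± 0.36 (limma adjusted p = 0.0236), the neural transcription factor gene Pou3f4 at -1.18 ± 0.27 (limma adjusted p = 0.0186) and the nuclease gene Dnase1l2 at -1.13 ± 0.19 (limma adjusted p = 0.00328). Sstr4 lost the call in 1 of the 16 leave-one-out fits (highest limma adjusted p = 0.0528, without wild-type LPS replicate 1). On log2(RPKM + 0.5), effects smaller by more than 1.5 times were 1.77 for Calhm6, -0.90 for Sema3g, -0.92 for Sstr4, -0.70 for Pou3f4 and -0.73 for Dnase1l2.

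The makeup of the called genes is given as shares with no test. Protein-coding genes made up 90.0% of the positive and 80.1% of the negative genes, against 80.8% of all genes tested, and antisense transcripts 1.48%, 7.15% and 4.67%. The sources used here do not say whether reads were counted by strand, so an antisense transcript and its partner may share reads. The median transcript length was 2919 bases for positive, 3697 for negative and 2957 for all genes, and the median GC content 49.7%, 50.8% and 49.8%. With trends in GC content and length removed from each library, 748 genes were called positive and 811 negative. Within 10 Mb of Lcn2 on chromosome 2, 303 genes were tested and 30 were called (9.90%, 14 positive and 16 negative), near the 8.82% of all genes.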

How the data were processed

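Gene-level values came from 1 table that the authors deposited as log2 RPKM after conditional quantile normalization, per the name of the deposited table; its column names speak of counts, but the values are fractional and partly negative. It held 33289 genes and 16 libraries. The build was mm10, per the submitters' processing notes; the sources used here do not give the aligner or counter. Gene IDs were matched to GENCODE vM21 (32695 matched, 594 did not). Read depth was not analysed here, so precision rests on 4 libraries per group. Genes with a log2 RPKM of at least -1 (0.5 RPKM) in at least 3 libraries were kept (17349). Group means were fitted in limma 3.58.1 (R 4.3.3) to all 16 libraries with eBayes and a trend of the mean. The contrast was the LPS effect in labelled Lcn2-/- minus that in wild type, two-sided, with Benjamini-Hochberg adjustment over all tested genes and a call at adjusted p under 0.05. The code was tested on simulated data.

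RPKM values per library are 2 to the power of the deposited log2 value. Tables used pandas 2.3.3 in Python 3.11.15 and plots matplotlib 3.10.9. Named genes were Lcn2, the 12 largest called interactions in each direction with a mean of at least 1 RPKM in a group (predicted genes and pseudogenes left out), the 10 genes with the largest opposite effects, the 10 largest interactions without a called LPS effect in wild type, and from each list at most 3 called members per direction plus the most highly expressed uncalled one. The members and lists were chosen with earlier results of these data known. Alternatives were other scales, filters, variance models and normalizations and leaving out each library.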

Additional observations from a re-analysis of the deposited data

Results flagged for a closer look

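For 33 genes and for the number of genes at 0.5 RPKM or more, 136 groups of 4 libraries were checked in all, and 11 held a library whose gap to the nearest other was large against the range of its group; chance gives about 1 in 20. A difference between the labels in the LPS effect itself was called by limma in 1530 genes, and in 32 of them both LPS effects were called with opposite signs.

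Saline replicate 4 labelled Lcn2-/- stood apart with 17112 genes at 0.5 RPKM or more, and with Cxcl9 at -2.54 (others -4.07 to -3.90) and Sstr4 at 1.32 (others 0.24 to 0.42), as log2 RPKM. Among wild-type saline libraries, Ccl7 was at -3.77 in replicate 4 (others -2.90 to -2.76), Nrarp at 2.22 in replicate 3 (others 2.49 to 2.5) and Per2 at 1.72 in replicate 1 (others 2.17 to 2.22). Among wild-type LPS libraries, Art3 was at 1.18 in replicate 4 (others 0.59 to 0.62), Sema3g at 0.374 in replicate 3 (others 0.05 to 0.10) and Gm12868 at 3.97 in replicate 1 (others 3.61). Among LPS libraries labelled Lcn2-/-, Slco1a4 was at -0.67 in replicate 3 (others 0.04 to 0.16) and Sema3g at -0.914 in replicate 4 (others -1.32 to -1.27).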

How the results depend on the processing

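No paired analysis was possible because the titles number the libraries across groups, so that the groups share no replicate numbers. Without a filter on low values the interaction was called in 905 genes (418 positive, 487 negative), with 37 smaller rises, 267 larger falls and 315 opposite. LPS effects were then called in 13790 genes in wild type and 17808 in labelled Lcn2-/-, and the label difference after saline in 3. Values far below the filter were lower in the LPS libraries than in the saline libraries, and the part of that shift in these LPS counts was not tested. With limma array weights, which gave saline replicate 4 labelled Lcn2-/- a weight of 0.0914 against 0.740 to 1.85, it was called in 3030 (1383 positive, 1647 negative), with 673 larger rises, 150 smaller rises, 864 larger falls, 106 smaller falls, 1237 opposite, 123 with both LPS effects called in opposite directions, and label differences in 5295 after LPS and 34 after saline. Leaving out 1 library gave 727 to 2267 calls (348 to 1046 positive, 379 to 1221 negative), 238 to 548 larger rises, 27 to 105 smaller rises, 221 to 640 larger falls, 6 to 57 smaller falls, 225 to 917 opposite, 11 to 83 with both effects called in opposite directions, and label differences in 1532 to 5174 after LPS and 3 to 13 after saline. The cause was not tested. Of 197 named genes 150 were called; 95 kept the call in every setting that tested them, 5 lost it without saline replicate 4 labelled Lcn2-/-, and 0 changed sign as a call. Depth is unknown, so low values cannot be given counting limits.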
